A study of Homo sapiens with 6 samples.

Results

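Proteoglycans are proteins that carry long sugar chains called glycosaminoglycans, and the genes described here encode 10 of their protein parts, the core proteins. They were taken by name from the table of normalized counts: lumican (LUM), decorin (DCN), biglycan (BGN), versican (VCAN), syndecan-1, syndecan-2 and syndecan-4 (SDC1, SDC2, SDC4), glypican-1 (GPC1), perlecan (HSPG2) and agrin (AGRN). All 10 are among the 19198 genes listed, and all 10 passed the minimum mean of 10 normalized counts that left 16988 genes to test. RNA-Seq had been done on MCF10A, an established, non-tumorigenic line of human mammary epithelial cells, in 3 samples with and 3 samples without growth factors. Both media held 5% horse serum, and the control medium added 10 µg/ml insulin, 20 ng/ml hEGF, 100 ng/ml cholera toxin and 0.5 µg/ml hydrocortisone, all of which were absent from the depleted medium. The study used this withdrawal as a model of epithelial to mesenchymal transition, the change of epithelial cells to a spindle-shaped state. The labels do not give the number of days without growth factors before RNA was taken, or whether samples came from separate cultures, so the p-values measure only the spread between these samples, which may be technical.

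Core proteins differ in the sugar they carry and in where they sit. Lumican, decorin and biglycan are small leucine-rich proteoglycans that bind collagen fibrils and carry keratan sulfate or chondroitin and dermatan sulfate, and versican is a large chondroitin sulfate proteoglycan that binds hyaluronan in loose, provisional matrix. Syndecans span the plasma membrane and glypicans are held to it by a lipid anchor, and both carry heparan sulfate that binds growth factors, EGF family ligands among them. Perlecan and agrin are heparan sulfate proteoglycans of the basement membrane, the sheet of matrix on which mammary epithelium rests.

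Upstream sequences are shown for versican and biglycan, which rose on growth factor depletion, and for syndecan-4, the member with the highest level per kb of exon in the controls, so that regions of called genes and of a gene that was not called stand side by side. They are RefSeq sequences on GRCh38.p14, read 5′ to 3′ on the strand of the gene and ending at the base before its start. The VCAN sequence, on the plus strand at chr5:83471494-83471617, ends at the base before the earlier start annotated by Gencode v44. The BGN sequence lies on the plus strand at chrX:153494730-153494979, and that of SDC4 on the minus strand at chr20:45348425-45348674. Capitals mark a match on either strand to TGNGGT, a loose form of the RUNX motif in which N is any base. The stricter RUNX core is TGYGGT, where Y is C or T. The VCAN match, TGCGGT on the other strand, fits this core, and the SDC4 match, TGGGGT, does not.
VCAN: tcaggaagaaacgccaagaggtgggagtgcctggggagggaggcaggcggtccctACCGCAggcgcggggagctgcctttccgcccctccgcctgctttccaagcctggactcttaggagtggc
BGN: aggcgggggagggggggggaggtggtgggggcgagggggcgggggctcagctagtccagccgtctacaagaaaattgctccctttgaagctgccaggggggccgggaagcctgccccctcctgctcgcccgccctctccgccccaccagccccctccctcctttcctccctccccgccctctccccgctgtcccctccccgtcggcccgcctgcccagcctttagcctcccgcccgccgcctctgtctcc
SDC4: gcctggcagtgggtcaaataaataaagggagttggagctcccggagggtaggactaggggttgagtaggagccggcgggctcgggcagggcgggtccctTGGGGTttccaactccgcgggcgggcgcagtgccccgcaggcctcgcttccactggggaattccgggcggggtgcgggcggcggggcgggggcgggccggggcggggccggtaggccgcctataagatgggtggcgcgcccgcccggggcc

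The RefSeq table matched 6 members (BGN, VCAN, SDC1, SDC4, GPC1 and HSPG2), and LUM, DCN, SDC2 and AGRN were not matched. In the 250 bases before the RefSeq start, VCAN had 1 RUNX match, 195 bases before the start, and SDC4 had 1, 151 bases before the start. Matches to this loose form were present in 37.6% of the 27305 promoters of the table, 1 per gene symbol, over the same length. The E-box CACCTG, a motif bound by SNAI and ZEB factors, matched in SDC1 alone, 29 bases before the start, and in 17.5% of all promoters. No match was found in the 6 members to the AP-1 motif TGANTCA (6.6% of all promoters), the TEAD motif GGAATG (11.9%) or the TATA motif TATAAA (11.1%), each searched on both strands. None of these motifs contains another. GC content ranged from 60.8% in VCAN to 84.0% in GPC1, above the 58.0% median of all promoters. A match of letters is a description of the sequence and not a measured binding site.

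Upon growth factor depletion, LUM, BGN and VCAN rose from low or undetected levels and became abundant, LUM by at least 1129-fold, BGN by 8.46 ± 1.12 and VCAN by 7.62 ± 0.48 on the log2 scale (SE, n = 3 per group). None of the 6 heparan sulfate members passed the test in either direction. A gene was called when its Benjamini-Hochberg adjusted p over all genes tested was under 0.05 in limma, with a change of at least 2-fold. By that rule 3 of the 10 members were called higher without growth factors, beside 4.36% of all genes tested. Of the members 0 were called lower, beside 1.97% of all genes, with 1 (HSPG2) lower at an unadjusted p under 0.05 and 0 called lower by edgeR or DESeq2. In either direction 6.33% of all genes were called. Every depleted sample lay above every control for 4 members, beside 13.5% of all genes, and below every control for 1 member, beside 12.1%. The median log2 fold change (without minus with growth factors) was 0.79 over the 10 members and -0.03 over all genes tested.

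**Figure D1:**
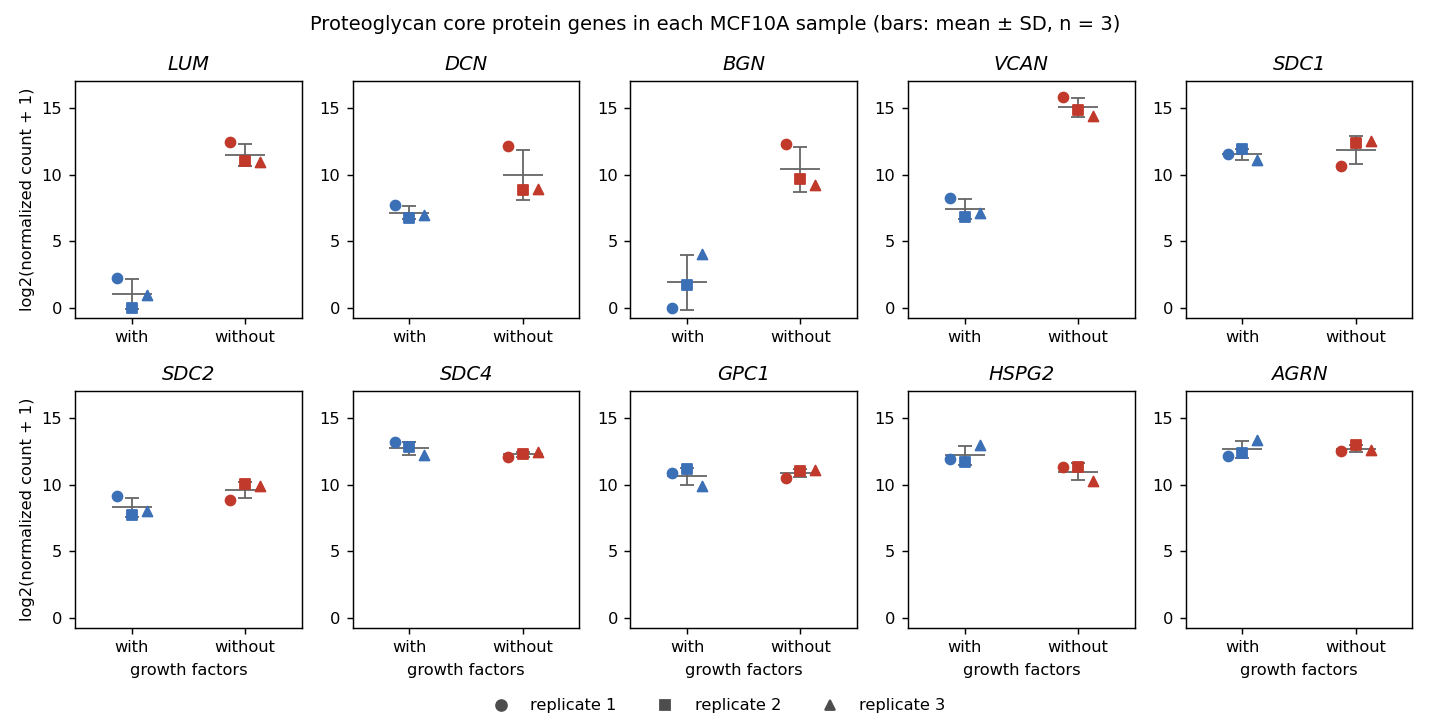
Expression of the 10 core protein genes in each sample, as log2(normalized count + 1), for cells with (blue) and without (red) growth factors. Horizontal bars are the mean and vertical bars the SD of 3 samples. LUM, DCN, BGN and VCAN lie higher in every depleted sample, HSPG2 lies lower in every depleted sample, and the groups of the other 5 genes overlap.

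The values behind these counts came from between 7472418 and 28672630 reads on genes per sample, the lowest depth being depleted replicate 3. A floor of 3 reads corresponds to between 1.76 and 6.71 normalized counts and covers counting error only. In each group 1 sample stood apart. Control replicate 3 correlated with the other controls at r = 0.893 and 0.881 over log2 values, beside 0.959 between those, and depleted replicate 1 with the other depleted samples at 0.926 and 0.925, beside 0.972. In depleted replicate 1, CDH1, the epithelial adhesion molecule E-cadherin, had 609.6 normalized counts beside 13234 and 13118 in depleted replicates 2 and 3, and RGS5, a pericyte gene, had 6491 beside 188 and 219 (both chosen after their values were seen). For this reason the changes of the 10 members are also given without depleted replicate 1. Those of HSPG2 and AGRN, where control replicate 3 was the highest of all samples, are given without that sample too. BGN, where it was the highest control, is treated likewise. The same is done for SDC4, whose groups overlapped through control replicate 3.

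LUM encodes lumican, a collagen-binding small leucine-rich proteoglycan. It lies on the minus strand at chr12:91102629-91111494 (hg38) and was close to absent from the controls. Normalized counts were 3.8, 0 and 1.0 with growth factors, from 3, 0 and 1 reads. Without them they were 5491, 2086 and 1981. All depleted samples were thus far above all controls, and depleted replicate 1 stood above the other two. Since each control was at the floor or under it, the change is given as a bound, and the depleted mean was at least 1129-fold higher than the floor (limma adjusted p = 3.2e-04). Its fitted change ranked 2nd from the highest among the genes tested. Without depleted replicate 1 it was still called (limma adjusted p = 0.00152).

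DCN, the gene of decorin, which binds collagen fibrils and TGFβ, is on the same strand at chr12:91140484-91183217. No annotated gene lies in the 28989 bases between LUM and DCN. In contrast to its neighbour, DCN was well detected in the controls, at 210.5, 107 and 125 normalized counts. In depleted samples it had 4495, 449 and 481. Every depleted sample was above every control, but replicate 1 was 9.67 times the mean of the other two. The log2 fold change was 2.80 ± 0.82 (SE, n = 3 per group) with a 95% interval of 0.92 to 4.68, and DCN was not called (limma adjusted p = 0.0891). Its log2 fold change was 1.71 without depleted replicate 1 (limma adjusted p = 0.0679).

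BGN encodes biglycan, a close relative of decorin that carries chondroitin or dermatan sulfate, at chrX:153494980-153509546 on the plus strand. Controls held 0, 2.3 and 15.7 normalized counts, from 0, 4 and 16 reads, and depleted samples held 5075, 799 and 595. The groups were far apart, and replicate 1 was again highest, at 7.28 times the mean of the other depleted samples. BGN rose by a log2 fold change of 8.46 ± 1.12 (SE, n = 3 per group, limma adjusted p = 0.00404), which ranked 11th from the highest. This became 7.50 without depleted replicate 1 (limma adjusted p = 0.00982). Without control replicate 3, the control with 15.7, it was 9.52 (limma adjusted p = 0.00303). With so few control reads the size depends on the pseudocount and on which control is left out. Over the 18 alternatives the log2 fold change was 6.53 to 9.52, highest without control replicate 3. BGN overlaps HAUS7 on the opposite strand, which had 2.5 to 14.8 normalized counts with growth factors and 6.6 to 22 without.

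VCAN, which encodes versican, is on the plus strand at chr5:83471618-83582303. Normalized counts of 303, 112 and 139 were found with growth factors. After depletion they were 58293, 29574 and 21262. The groups were again far apart, and here replicate 1 exceeded the mean of the others by 2.29 times. VCAN rose 197-fold, a log2 fold change of 7.62 ± 0.48 (SE, n = 3 per group, limma adjusted p = 3.2e-04), ranked 22nd from the highest. Without depleted replicate 1 the log2 fold change was 7.22 (limma adjusted p = 8.01e-04).

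Among the syndecans, SDC1 (chr2:20200797-20225433, minus strand), the main syndecan of epithelia, stood at 2930, 3912 and 2159 normalized counts in the controls. The depleted samples had 1565, 5145 and 5811. Depleted replicate 1 was below all controls while replicates 2 and 3 were above all controls. The log2 fold change of 0.31 ± 0.51 (SE, n = 3 per group) was smaller than the spread between samples, with a 95% interval of -0.87 to 1.48 (limma adjusted p = 0.806). Without depleted replicate 1 it was 0.91 (limma adjusted p = 0.24).

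SDC2 (chr8:96493813-96611790, plus strand), a syndecan known mainly from mesenchymal cells, had 559, 217 and 267 normalized counts in the controls. In depleted samples it had 471, 1037 and 941. Depleted replicates 2 and 3 were above every control, whereas replicate 1 fell between the controls. A log2 fold change of 1.27 ± 0.45 (SE, n = 3 per group) did not pass the test after adjustment (limma adjusted p = 0.156). It was 1.63 without depleted replicate 1 (limma adjusted p = 0.0957).

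SDC4 (chr20:45325288-45348424, minus strand), a syndecan of focal adhesions, reached 9310, 7096 and 4781 normalized counts in the controls. Depleted samples gave 4339, 5032 and 5543. The groups overlapped through control replicate 3. The log2 fold change was -0.46 ± 0.34 (SE, n = 3 per group), with a 95% interval of -1.23 to 0.31 (limma adjusted p = 0.52), and -0.37 without depleted replicate 1 (limma adjusted p = 0.715). Without control replicate 3 it was -0.72 (limma adjusted p = 0.114). SDC4 shares its strand and part of its span with a long non-coding RNA, so reads could be split between them.

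GPC1 (chr2:240435663-240468076, plus strand), which encodes a glypican that binds FGF ligands, was measured at 1828.5, 2274 and 950.3 normalized counts in the controls. After depletion it was at 1477, 2039 and 2171. These ranges overlapped almost entirely. GPC1 had a log2 fold change of 0.24 ± 0.37 (SE, n = 3 per group, limma adjusted p = 0.784), and the 95% interval of -0.61 to 1.09 leaves room for a change of up to about 2-fold upward. It was 0.41 without depleted replicate 1 (limma adjusted p = 0.696).

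HSPG2 (chr1:21822244-21937310, minus strand), which encodes perlecan, had 3851, 3263 and 8017 normalized counts in the controls. In depleted samples it had 2569, 2585 and 1227.5. It was the sole member with every depleted sample below every control. The log2 fold change of -1.21 ± 0.44 (SE, n = 3 per group) did not pass the test (limma adjusted p = 0.167). It was -1.38 without depleted replicate 1 (limma adjusted p = 0.192) and -0.82 without control replicate 3, the sample with 8017 (limma adjusted p = 0.181). The call changed once transcript length and GC content were regressed out, which gave -1.55 (limma adjusted p = 0.0307).

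AGRN (chr1:1020120-1056118, plus strand), the gene of agrin, gave 4632, 5323 and 10461 normalized counts in control cells. The depleted values were 5729, 8189 and 6292. All depleted samples lay within the range of the controls. AGRN had a log2 fold change of 0.06 ± 0.39 (SE, n = 3 per group, limma adjusted p = 0.957), with a 95% interval of -0.82 to 0.95. It was 0.17 without depleted replicate 1 (limma adjusted p = 0.898) and 0.42 without control replicate 3 (limma adjusted p = 0.32).

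**Figure D2:**
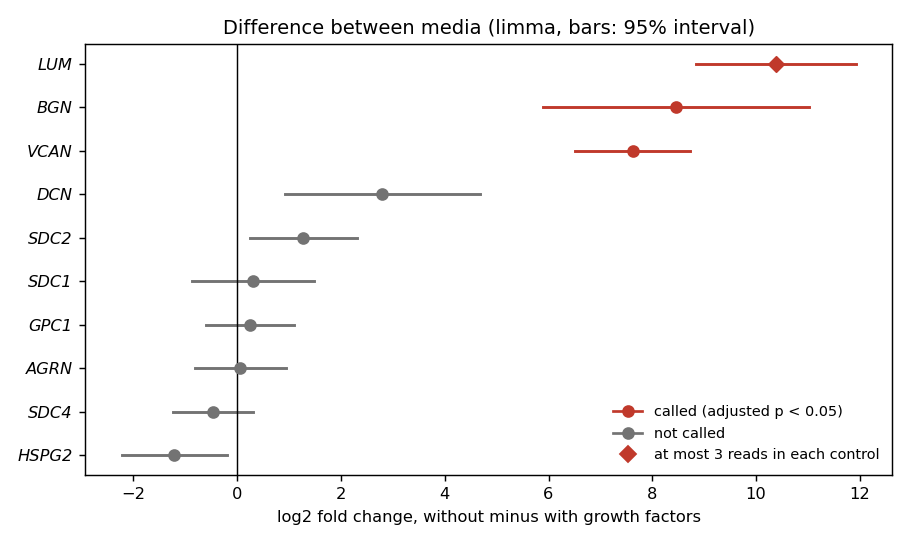
Log2 fold change of each gene, without minus with growth factors, from limma on log2(normalized count + 1), with 95% intervals of single genes (3 samples per group). LUM, BGN and VCAN (red) were called after adjustment over 16988 genes. The intervals of DCN, SDC2 and HSPG2 leave out 0 but these genes were not called. The fitted values of LUM (diamond) and BGN depend on the pseudocount.

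The depleted samples did not differ from each other in the same direction across the members. Depleted replicate 1 was the highest depleted sample for 4 members (LUM, DCN, BGN and VCAN) and the lowest for 5 (SDC1, SDC2, SDC4, GPC1 and AGRN). Over all genes tested it was highest for 39% and lowest for 35.5%. Expressed against the control mean, SDC1 of depleted replicates 1, 2 and 3 stood at 52.2%, 171.5% and 194%. In the same order DCN stood at 3046%, 304% and 326%. HSPG2 was at 50.9%, 51.2% and 24.3%, so its lowest depleted sample was replicate 3.

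**Figure D3:**
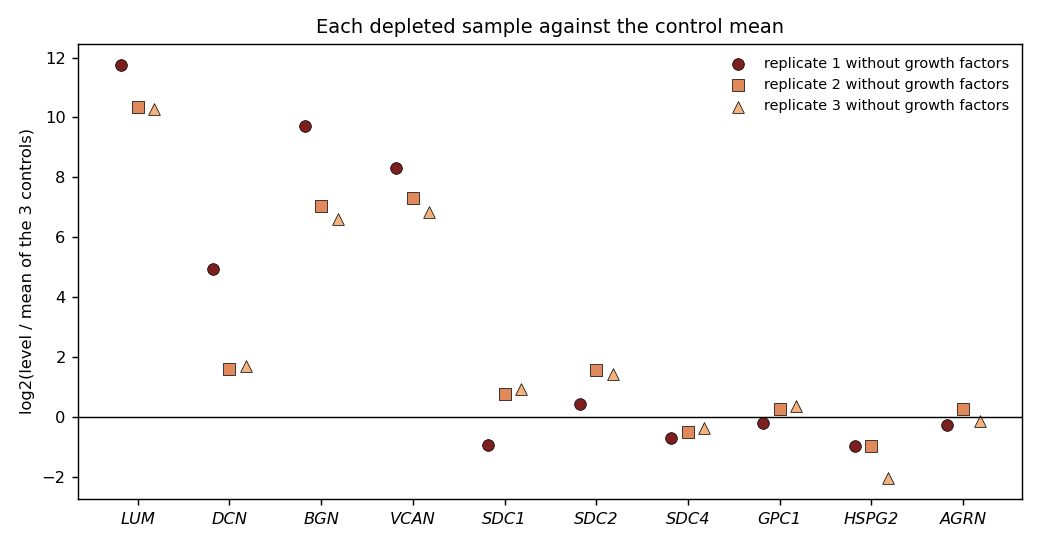
Log2 ratio of each depleted sample to the mean of the 3 controls for the 10 genes; the line at 0 marks the control mean. Depleted replicate 1 (dark circles) is the highest depleted sample for LUM, DCN, BGN and VCAN and lies below the control mean for SDC1, where replicates 2 and 3 lie above it.

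Markers of the cells that the cultures could hold were summed beside these results. The labels call MCF10A luminal ductal cells. Of 9 luminal markers ELF5 and KIT were not listed, and the 7 listed summed to 8935 to 18492 normalized counts in the controls and 18326 to 31554 in depleted samples, with KRT19 called lower. All 7 basal mammary markers were listed and summed to 63719 to 107919 and 82481 to 162226, with TP63 called lower. Within this list KRT17 was higher and ITGA6 lower in every depleted sample, neither called. KRT5 had 562 normalized counts in depleted replicate 1, beside 12739 to 38503 in the controls (these 3 genes chosen after their values were seen). Basal markers were thus present in cells labelled luminal, and the study itself describes MCF10A as basal and normal-like. These sums are not divided by length. The 7 pan-epithelial markers summed to 27091 to 42425 in the controls and to 5750, 28972 and 30400 in depleted replicates 1, 2 and 3. CDH1 was a large part of this sum except in depleted replicate 1. Within the list ESRP1 and ESRP2, chosen after their values were seen, were lower in every depleted sample, neither called. The other markers of the list overlapped between media. Of 9 listed fibroblast and mesenchymal markers, 5 were called higher (COL1A1, COL1A2, COL3A1, PDGFRA and PDGFRB), and the sum went from 2151 to 2983 in the controls up to 15587 to 33478. PDGFRA and THY1 were at or under the floor in every control, and THY1 had only 3, 5 and 3 reads in the depleted samples. The 4 listed smooth muscle and pericyte markers summed to 232 to 354 with growth factors and 4338 to 8520 without, with 2 called higher (ACTA2 and RGS5). CNN1 was at or under the floor in every control and in depleted replicate 1. The sums of the 4 endothelial markers overlapped at 167 to 1787 and 265 to 1610, with CDH5 called higher. KDR, chosen after its values were seen, went the other way. It was lower in every depleted sample but not called (log2 fold change -3.83, limma adjusted p = 0.193). The 2 leukocyte markers listed summed to 9.37 to 26.3 and 13.4 to 23.6, and PTPRC was at or under the floor in every control. The part of these shifts in the changes of LUM, DCN, BGN and VCAN was not tested. In such bulk samples fewer cells of a type and less RNA per cell cannot be told apart.

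To compare core proteins with each other, normalized counts were divided by the length of the union of exons of each gene. This union is longer than the longest transcript for DCN (12941 and 6850 bases) and GPC1 (6522 and 3719). For LUM (2671) and SDC4 (2613) both lengths are the same. Levels and shares of DCN and GPC1 may therefore be the most understated beside those of LUM and SDC4. The other members lie between, from AGRN (10761 and 7477) and HSPG2 (18118 and 14341) to BGN (2404 and 2353), and may be understated to a lesser degree. In the controls SDC4 had the highest level, at 2703 ± 867 normalized counts per kb of exon (SD, n = 3), followed by SDC1 at 830.5 ± 243 and AGRN at 632 ± 296. HSPG2 (278 ± 143) and GPC1 (258 ± 103) came next, then SDC2 (85.1 ± 45.3), VCAN (12.6 ± 7.06), DCN (11.4 ± 4.27), BGN (2.51 ± 3.53) and LUM (0.592 ± 0.730). Neighbours whose samples did not overlap were SDC4 above SDC1, GPC1 above SDC2, SDC2 above VCAN and DCN above BGN. The other neighbours overlapped and their order is not resolved.

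Without growth factors VCAN had the highest mean, 2478 ± 1324 normalized counts per kb of exon (SD, n = 3), with SDC4 at 1903 ± 231. LUM, last in the controls, came to 1193 ± 748, SDC1 to 1155 ± 632 and BGN to 897 ± 1052. AGRN (626 ± 120), GPC1 (291 ± 56.5), SDC2 (199.9 ± 74.1), DCN (139.7 ± 180) and HSPG2 (117 ± 43.0) followed. AGRN and GPC1 were the only neighbours whose samples did not overlap, so the order above and below that step is not resolved. The first place turned without depleted replicate 1, with SDC4 at 2024 and VCAN at 1732 normalized counts per kb. Without that sample LUM was at 761, BGN at 289.9 and DCN at 35.9.

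As shares of the summed level per kb of the 10 genes, LUM, DCN, BGN and VCAN together made up 0.701%, 0.345% and 0.638% in the controls. In depleted samples they made up 73.2%, 39.6% and 33.4%. The means were 0.561% and 48.7%, with every depleted sample above every control (exact two-sided permutation test, p = 0.1, the smallest that 3 against 3 can give, and 0.157 after adjustment over the shares). The difference was 48.2 percentage points, and 35.9 without depleted replicate 1. VCAN alone held 26.3 ± 7.43% of the depleted sum (SD, n = 3), LUM 12.5 ± 4.53%, BGN 8.57 ± 8.36% and DCN 1.31 ± 1.46%. Without depleted replicate 1 these shares were 22.4%, 9.89%, 3.75% and 0.468%. Correspondingly, the share of SDC4 went from 55.2 ± 10.1% to 22.3 ± 7.30%, although its own level had no called change.

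The summed level itself was 4814 ± 700.0 normalized counts per kb with growth factors and 8999 ± 2266 without, a ratio of 1.87 (SD, n = 3 per group, exact permutation p = 0.1). Summed over the 6 heparan sulfate members the level was 4787 ± 695 and 4292 ± 1025, a ratio of 0.897 (exact permutation p = 0.6). This sum overlapped between media. By mean its largest parts were SDC4 and SDC1, so it does not show the change of HSPG2, whose depleted samples all lay below its controls.

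**Figure D4:**
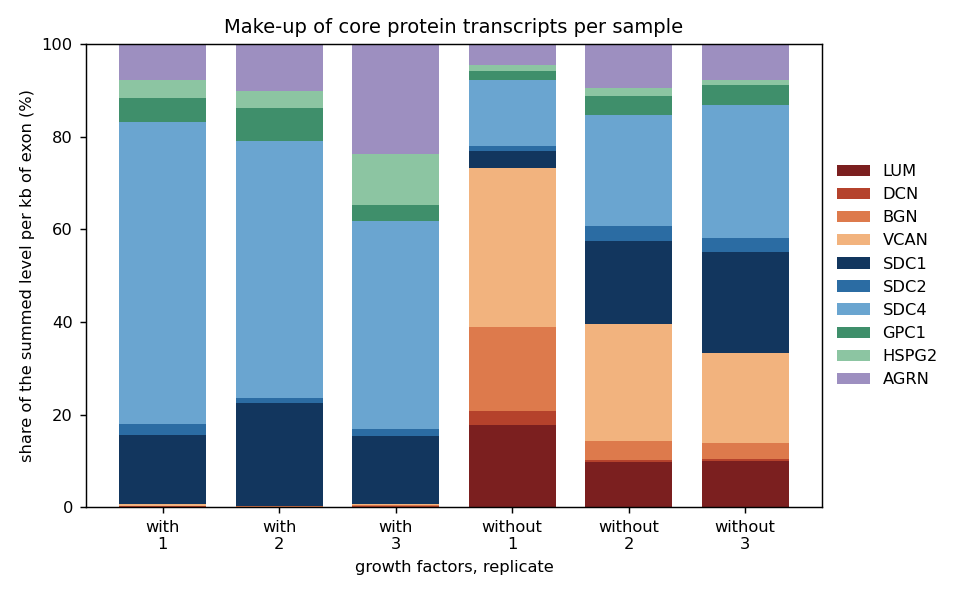
Share of each core protein gene in the summed level of the 10 genes (normalized counts per kb of exon) in each sample. LUM, DCN, BGN and VCAN (red to orange) take 0.345% to 0.701% in the controls and 33.4% to 73.2% in depleted samples, and SDC4 (light blue) takes the most in each control.

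Within the syndecans, SDC3 included, SDC4 held 71.9 ± 3.38% of the summed level per kb in the controls and 59.0 ± 11.8% without growth factors (SD, n = 3 per group). Depleted replicate 1, at 72.5%, was like the controls, while replicates 2 and 3 had 51.9% and 52.5%. The share of SDC1 was 22.6 ± 5.19% and 32.4 ± 11.7%, and that of SDC3 3.22 ± 1.11% and 2.83 ± 0.743%. The share of SDC2 was 2.26 ± 0.812% and 5.86 ± 0.909%, the sole syndecan share with groups that did not overlap (exact permutation p = 0.1, and 0.4 after adjustment over the 4 shares). The sum of the 4 syndecans per kb was 3741 ± 1079 and 3348 ± 931 (exact permutation p = 0.6).

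The other genes of the pathway were taken from 12 lists of 142 genes, of which 104 were listed in the table and 100 were tested. Of these 21 were called higher and 4 lower without growth factors, beside 4.36% and 1.97% of all genes, and 75 were not called. Their median log2 fold change was 0.71. Of the 25 called genes, 14 were called with each of the 6 samples left out in turn, and 19 without depleted replicate 1. Sizes are given for at most 3 genes of each list.

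Of 14 other small leucine-rich proteoglycans and close relatives, 10 were not listed, fibromodulin (FMOD) and osteoglycin (OGN) among them. Of the 4 tested 0 were called by limma or edgeR, with 1 higher and 1 lower at an unadjusted p under 0.05 and 1 called lower by DESeq2. ECM2, the gene with the smallest p, had normalized counts of 66.4, 41.6 and 14.8 in control cells against 4.6, 6.6 and 0 after depletion (limma log2 fold change -3.36, adjusted p = 0.0781). All its depleted samples were lower than its controls.

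Of 7 other hyalectans and hyaluronan link proteins, aggrecan (ACAN) and 4 others were not listed. HAPLN1, a link protein that ties hyaluronan to versican and aggrecan, had 0 reads in every control and normalized counts of 15.6, 17.7 and 6.7 after depletion, under the minimum mean for testing. Its depleted mean was at least 4.72-fold above the floor. HAPLN3, another link protein and the one gene of this list tested, was not called by limma, edgeR or DESeq2 or at an unadjusted p under 0.05 (log2 fold change 1.30, limma adjusted p = 0.267).

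Of the 4 other syndecans and glypicans tested, 0 were called by limma or edgeR, with 1 higher at an unadjusted p under 0.05 and 1 called higher by DESeq2. GPC4, a glypican, showed 47.6, 21.1 and 63.9 normalized counts in the controls against 37.5, 738 and 313 in depleted cells, with depleted replicate 1 inside the range of the controls (limma log2 fold change 2.33, adjusted p = 0.238).

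Proteoglycans of other kinds, in the matrix and the membrane, had 5 of 10 tested genes called higher and 0 lower (1 lower at an unadjusted p under 0.05 in limma, 0 called lower by edgeR and 1 by DESeq2). SPOCK1, the secreted testican-1, had normalized counts of 244, 301 and 266 in control cells against 9130, 7242.5 and 4660 after depletion (limma log2 fold change 4.64, adjusted p = 4.1e-04). COL18A1, the basement membrane collagen XVIII, which carries heparan sulfate, had 25.1, 27.5 and 83.6 and then 315, 1015 and 619 (limma log2 fold change 3.88, adjusted p = 0.00769). ESM1, the secreted dermatan sulfate proteoglycan endocan, had at most 1.2 normalized counts in any control, against 43.9, 24.9 and 24.6 after depletion, at least 11.03-fold above the floor (limma adjusted p = 0.00767). In all 3 genes the groups did not overlap. NRP1 and SRGN were the other genes called higher. SRGN, with 2568 normalized counts in depleted replicate 1 beside 450.4 and 682 in the other depleted samples, was not called without that replicate (limma adjusted p = 0.111), and kept its call with 1 of the 6 samples left out.

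Genes that build the sugar chains followed. Among 11 tested genes for precursors and the linker between protein and chain, UGDH was called by limma, and DESeq2 called 3. The UGDH enzyme makes UDP-glucuronic acid, a building block of heparan sulfate, chondroitin sulfate and hyaluronan, and its normalized counts of 504, 279 and 252 compared with 1310, 1328 and 1249.9 after depletion (limma log2 fold change 1.98, adjusted p = 0.01). The depleted samples were close together and all above the controls, but UGDH was not called without depleted replicate 2 or without depleted replicate 3. In this list 0 were called lower, by edgeR and DESeq2 also, and 0 were lower at an unadjusted p under 0.05.

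Of 17 tested heparan sulfate synthesis genes 4 were called higher and 0 lower (1 lower at an unadjusted p under 0.05 in limma, 0 called lower by edgeR and 1 by DESeq2). HS3ST2, a 3-O-sulfotransferase, had 0 reads in all controls and normalized counts of 20.1, 422 and 490 after depletion, at least 110-fold above the floor as a mean (limma adjusted p = 0.00815). Depleted replicate 1, the highest depleted sample for LUM, DCN, BGN and VCAN, was here the lowest of the depleted samples. NDST3, an N-deacetylase and N-sulfotransferase, went from 2.0 to 7.5 normalized counts up to 90.6 to 218 (limma log2 fold change 4.88, adjusted p = 0.00345). HS3ST3B1, another 3-O-sulfotransferase, rose by 2.76 on the log2 scale (limma adjusted p = 0.025). HS3ST3A1 was the fourth gene called. HS3ST3B1 and HS3ST3A1 each kept their call with 2 of the 6 samples left out and lost it without depleted replicate 1 (limma adjusted p = 0.0511 and 0.11), whereas HS3ST2 and NDST3 were called in all 6.

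SULF1, an extracellular sulfatase that removes 6-O-sulfate from heparan sulfate, was called among 3 tested editing genes. Its normalized counts were 25.1, 54.5 and 18.7 in control cells against 34584, 3546 and 5565 after depletion (limma log2 fold change 8.17, adjusted p = 0.00123). As with DCN and BGN, depleted replicate 1 was far above the other depleted samples, and without it the log2 fold change was 7.18 (limma adjusted p = 0.00149). None of this list was called lower by limma or edgeR, with 1 lower at an unadjusted p under 0.05 and 1 called lower by DESeq2.

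Of 15 tested genes for chondroitin and dermatan sulfate 4 were called higher and 1 lower. CHSY3, a chondroitin synthase, went from normalized counts of 15.0, 7.0 and 6.9 to 76.9, 142 and 159 after depletion (limma log2 fold change 3.59, adjusted p = 0.00768). CHPF, which works with chondroitin synthases to extend the chain, went from 491 to 656 up to 1615.5 to 2028 (limma log2 fold change 1.61, adjusted p = 0.00932). Conversely CSGALNACT1, which adds the first N-acetylgalactosamine of the chain, fell from 2253 to 2707 normalized counts to between 386 and 872 (limma log2 fold change -1.99, adjusted p = 0.012). CSGALNACT2, an enzyme of the same step, and CHST14, the dermatan 4-O-sulfotransferase, were called higher. The list had 0 genes called higher by limma without depleted replicate 2 or 3, 2 without control replicate 1 or 2, 3 without depleted replicate 1 and 7 in DESeq2. CSGALNACT2, at a limma adjusted p of 0.0484, kept its call with 1 of the 6 samples left out, and CSGALNACT1 with all 6.

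For keratan sulfate, the chain of lumican, 1 of 6 tested genes was called. CHST2, an N-acetylglucosamine 6-O-sulfotransferase, was at 0, 0.6 and 2.0 normalized counts in control cells against 89.7, 59.7 and 71.6 after depletion, at least 26.1-fold above the floor (limma adjusted p = 0.00278). In this list 0 were lower by limma, edgeR or DESeq2, and 0 at an unadjusted p under 0.05.

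Hyaluronan, to which versican binds, is made and broken down by genes of which 9 were tested, 3 called higher and 1 lower. CEMIP, which is needed for hyaluronan breakdown, rose from normalized counts of 2.5, 26.4 and 68.9 to 770, 1859 and 1833.5 (limma log2 fold change 6.19, adjusted p = 0.00821). TNFAIP6, the hyaluronan-binding TSG-6, went from 1.2 to 7.9 up to 54.0 to 168 (limma log2 fold change 4.79, adjusted p = 0.00767). HYAL1, the lysosomal hyaluronidase, was lower in all depleted samples, at 122, 148 and 102 and then 8.2, 3.3 and 0 normalized counts (limma log2 fold change -5.18, adjusted p = 0.00852). CEMIP2, a relative of CEMIP, was also called higher. TNFAIP6 was not called without depleted replicate 2, and the other 3 were called with each of the 6 samples left out.

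Of 12 tested proteases and related proteins that act on core proteins 1 was called higher and 2 lower. ADAMTS1, which cuts versican and aggrecan, had at most 1.3 normalized counts in any control, against 8.2, 82.0 and 165.5 after depletion, at least 30.2-fold above the floor (limma adjusted p = 0.0255). PRSS12, neurotrypsin, which cuts agrin, fell from 3223, 2006 and 1734 to 180, 364 and 371 normalized counts (limma log2 fold change -2.94, adjusted p = 0.00389). PCOLCE2, an enhancer of procollagen C-proteinase, fell by 2.21 on the log2 scale (limma adjusted p = 0.0451). For these 3 genes no depleted sample overlapped the controls. PRSS12 was called with each of the 6 samples left out, ADAMTS1 with 2 and PCOLCE2 with 1. PCOLCE2 was not called without depleted replicate 1 (limma adjusted p = 0.0902), and ADAMTS1 was not called without either of control replicates 1 and 2 or depleted replicates 2 and 3. The list had 2 called higher and 3 lower without control replicate 3.

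Of 8 intracellular partners of syndecans 1 was called, SYNPO, an actin-associated protein, with normalized counts of 36.3, 86.7 and 211.5 in control cells against 1379, 1516 and 1639 after depletion (limma log2 fold change 4.09, adjusted p = 0.00502). Of this list 0 were called lower by limma, edgeR or DESeq2, with 1 lower at an unadjusted p under 0.05.

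**Figure D5:**
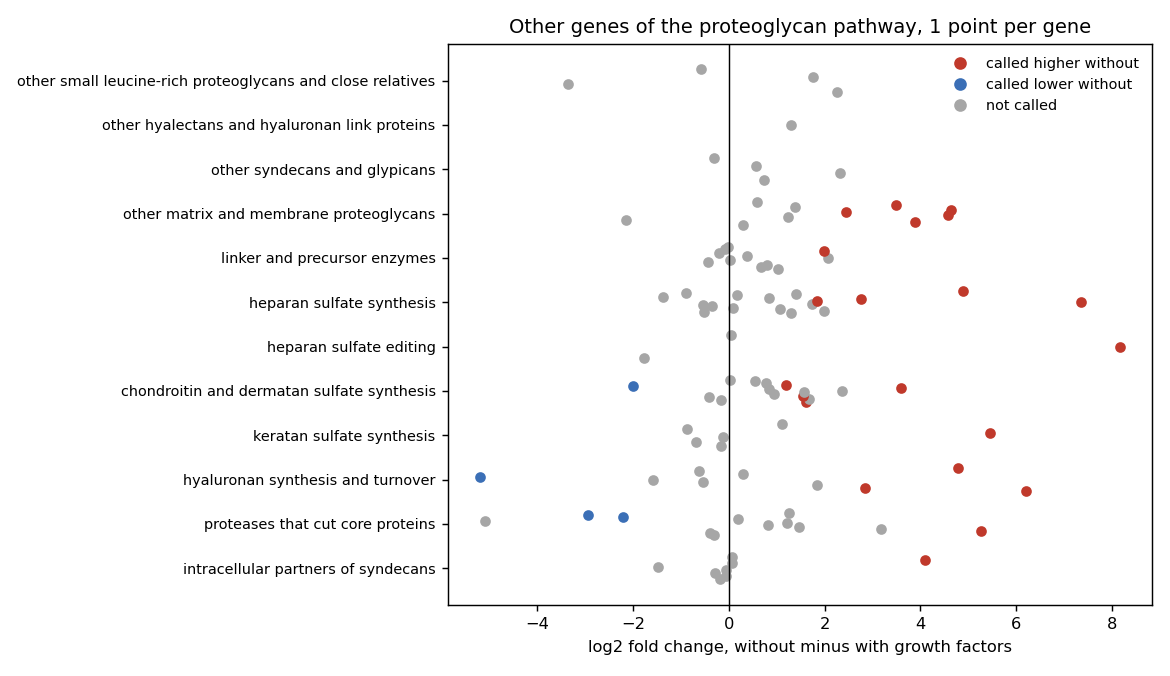
Log2 fold change (without minus with growth factors) of the 100 tested genes of the 12 pathway lists, 1 point per gene, from limma on log2(normalized count + 1). Of these, 21 were called higher (red) and 4 lower (blue), and the called genes lie in 9 of the 12 lists.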

How the data were processed

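Total RNA of MCF10A cells, 3 samples with and 3 without growth factors, had been depleted of ribosomal RNA, made into stranded libraries (TruSeq) and sequenced as single-end reads of 100 bases. What the authors deposited is a signal: reads per gene divided by the size factor of the sample, called normalized counts here. Per the labels the authors mapped reads to hg38 and counted them on Gencode v22. The submitters' processing notes name cutadapt 1.6, TopHat2, HTSeq 0.6, DESeq2 1.8.1 and R 3.2.0. The strand setting of the counting is not given in the sources used here. Values are not divided by gene length. All values (100%) were whole multiples of what 1 read is worth in the sample, within 0.02 reads, so reads could be recovered, giving 7472418 to 28672630 per sample.

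Groups and replicate numbers were taken from the labels, which give 3 samples per condition. The submitters' design text gives 2 replicates per condition, and this difference was not resolved. Log2(normalized count + 1) was tested with limma 3.58.1 (lmFit, eBayes with a trend, R 4.3.3) over 16988 genes whose mean reached 10, all 6 samples in the fit, with Benjamini-Hochberg adjustment. Genes were called at an adjusted p under 0.05 and at least 2-fold. Fold changes on this scale understate those of low genes. Against a group with at most 3 reads in each sample, folds are bounds, computed from group means against 3 reads in normalized counts. Shares per kb used the union of Gencode v44 exons and exact two-sided permutation tests, which cannot go below p = 0.1 here. Gencode v44 named 18913 of the 19198 identifiers. The procedure was also run on simulated counts, drawn independently per gene with means and spread taken from these data. No simulated sample was set apart from its group, so that run does not bear on calls that depend on 1 sample. Alternatives were other pseudocounts, filters, scalings, a length and GC correction (16782 of the 16988 genes had both values), the replicate block, each sample left out, and edgeR 4.0.16 and DESeq2 1.42.0 on the recovered reads. Levels per kb with a sample left out were added after the data were seen.

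The 10 members and all lists were chosen with earlier results of these data known. Named genes are the members, up to 3 called genes with the largest absolute change per list, or the gene with the smallest p where none was called, and core proteins with at most 3 reads in each sample of a group. Markers are named where at the floor in a group. Other names complete a count or were chosen after their values were seen.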

Additional observations from a re-analysis of the deposited data

How the results depend on the processing

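LUM, BGN and VCAN were called higher under all 18 alternatives, with log2 fold changes of 7.95 to 11.33, 6.53 to 9.52 and 7.22 to 8.05. Of 180 results for a member under an alternative, 168 kept direction and side of the threshold, 2 passed it newly (DCN with the replicate block, adjusted p = 0.0114, and HSPG2 with the length and GC correction, which made 1 member called lower) and 10 changed sign without a call. DESeq2 gave DCN no adjusted p. The changes of sign were SDC1 (-0.04 without depleted replicate 3, up to 0.91 leaving out others), GPC1 (-0.04 with the length and GC correction, with or without the block, and -0.12 without control replicate 3, up to 0.50 leaving out others) and AGRN (-0.01 in DESeq2, -0.27 with that correction, with or without the block, -0.16 without control replicate 1, -0.06 without control replicate 2 and -0.08 without depleted replicate 2, up to 0.42 leaving out others). Same-numbered samples did not deviate together (r = -0.0726, -0.283 and -0.323, different numbers -0.0677 to 0.291). With only 3 such pairs this cannot tell whether same-numbered samples were grown or prepared together. With the replicate block 4 members, 2 chondroitin and dermatan sulfate genes (4 without the block), 19 pathway genes and 689 genes of the whole table were higher. Leaving out a sample gave 11 (without depleted replicate 2) to 25 pathway genes higher and 13 without depleted replicate 3, and 3 to 10 lower, the 10 without control replicate 3. Over all genes it gave 313 (without depleted replicate 2) to 1372 (without control replicate 3) higher, with 341 without depleted replicate 3 and 478 without control replicate 1. It gave 126 (without depleted replicate 3) to 1102 (without control replicate 3) lower, with 140 without depleted replicate 2, and 156 and 175 without control replicates 1 and 2. DESeq2 called 10 pathway genes lower, and 1287 genes higher and 825 lower over the whole table, and the length and GC correction with the block called 448 higher. Cause was not tested. The median of all genes shifted most in DESeq2, by -0.067 (log2). Shares of LUM, DCN, BGN and VCAN together were higher by 35.9 to 62.7 percentage points under all alternatives. The precision is limited by 3 samples per group and a lowest depth of 7472418 reads.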
